A study of Homo sapiens with 15 samples.

Results

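HepG2 cells exposed for 72 h to tris(2-chloroethyl) phosphate (TCEP) at 25 µM were compared with cells given the solvent alone, 0.1% dimethyl sulfoxide (DMSO). The comparison took the 3 libraries labelled TCEP 25 µM and the 3 labelled DMSO control, 6 of the 15 libraries of the series, and all genes whose exon reads passed a low-count filter, 12567 of the 57773 listed. HepG2 is an established line from a human hepatocellular carcinoma that keeps many hepatocyte functions. All groups held the same line, obtained from ATCC and kept under 25 passages, without genetic change; cells grew in six-well plates for 72 h before the exposure, and each replicate was seeded, grown, treated and extracted separately, per the series' design text. The other 9 libraries, 3 a group, came from TCEP at 250 µM and from tris(2-chloroisopropyl) phosphate (TCIPP) at 2.5 and 25 µM, all in the same solvent for the same time. TCIPP differs from TCEP by a methyl group on each chloroalkyl arm.

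TCEP is a chlorinated organophosphate used as a flame retardant and plasticizer. Liver cells meet such compounds with inducible programs, and several of these recur below. Transcription factors of the HIF family switch on glucose uptake, glycolysis and matrix-modifying enzymes when oxygen or the hydroxylases that sense it are limiting. NRF2 drives enzymes that reduce and conjugate reactive molecules. ATF4 drives amino acid synthesis and transport genes under amino acid or endoplasmic reticulum stress, HSF1 drives cytosolic chaperones, and serum response factor acts with ETS factors on immediate early genes downstream of growth factor signalling.

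Exon reads ran from 7.91 to 21.4 M (megareads) with DMSO and from 9.05 to 14.7 M with TCEP 25 µM, so that 3 reads equal 0.140 to 0.379 CPM, counts scaled to 1 M exon reads. All 10 hepatocyte and HepG2 markers had reads in every library, with a summed level of 49500 to 57500 CPM with DMSO and 47800 to 49500 CPM with TCEP. Markers of other cell types were partly present. The 10 fibroblast and stellate markers summed to 60.9 to 65.9 CPM with DMSO and 52.0 to 65.2 CPM with TCEP, nearly all from ACTA2, TAGLN and PDGFRB, with COL1A2, THY1, DCN and LUM at 0 reads. The 5 endothelial markers summed to 0.998 to 1.90 CPM with DMSO and 1.70 to 2.65 CPM with TCEP, with KDR, TEK and STAB2 at 0 reads. The 7 leukocyte markers summed to 4210 to 5400 CPM with DMSO and 4280 to 4790 CPM with TCEP, nearly all from the lysozyme gene LYZ, with CD68 at 32.8 CPM over the 6 libraries and CD163, CD3E and MS4A1 at 0 reads. The 5 cholangiocyte markers summed to 539 to 572 CPM with DMSO and 550 to 598 CPM with TCEP, from KRT19, SOX9 and EPCAM, with CFTR at 0 reads. The part of these markers in the results was not tested. Mitochondrial genes took 6.997 ± 0.709% of exon reads with DMSO and 6.15 ± 0.341% with TCEP (SD, n = 3 each; exact two-sided permutation p = 0.2, where 0.1 is the smallest possible). Of the reads of genes with introns, 7.73 ± 0.276% lay in introns with DMSO and 6.98 ± 0.211% with TCEP, without overlap (exact two-sided permutation p = 0.1). In bulk RNA, fewer cells of a type and less RNA per cell cannot be told apart.

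Promoter sequence is shown for 7 genes named in the results below, each from a gene group with a known DNA motif. Only genes with a match to the motif are shown. The stretches come from RefSeq on GRCh38.p14, lie within the 250 bases before the annotated start, and read 5′ to 3′ on the gene's strand with the motif in capitals. LOX (chr5:122078285-122078456, minus strand), BNIP3 (chr10:131982022-131982087, minus) and ERO1A (chr14:52695638-52695702, minus; ERO1L in the deposited tables) belong to the hypoxia list, and capitals mark ACGTG on either strand, the core of the HIF site.
LOX: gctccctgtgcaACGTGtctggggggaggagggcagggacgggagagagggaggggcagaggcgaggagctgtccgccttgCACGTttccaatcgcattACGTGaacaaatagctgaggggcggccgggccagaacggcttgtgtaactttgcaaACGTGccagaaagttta
BNIP3: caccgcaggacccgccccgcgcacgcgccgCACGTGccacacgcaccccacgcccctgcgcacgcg
ERO1A: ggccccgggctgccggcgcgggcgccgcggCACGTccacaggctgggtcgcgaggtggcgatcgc
ACGTG on either strand was present in 16 of the 28 tested hypoxia genes with a promoter in the table (57.1%), against 18.7% of all 27305 promoters and 23.8% of the 9764 promoters of tested genes. Among the 9 hypoxia genes with a promoter and an unadjusted p under 0.05 it was in 6. The motif overlaps the E-box CACGTG, which is in 6.49% of all promoters and is the form found in BNIP3. EGR1 (chr5:138465349-138465430, plus), an immediate early gene, carries 2 CArG boxes, the binding site of serum response factor, in capitals here.
EGR1: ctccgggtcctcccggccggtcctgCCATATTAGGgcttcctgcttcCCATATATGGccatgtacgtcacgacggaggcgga
A CArG box was in 2 of 15 immediate early genes (13.3%), EGR1 and SRF, in 1.14% of all promoters and in 0.963% of those of tested genes. Both are among the 6 immediate early genes with a promoter and an unadjusted p under 0.05. HSPA1A (chr6:31815407-31815474, plus) and CHORDC1 (chr11:90223055-90223264, minus) encode a chaperone and a co-chaperone, and capitals mark GAANNTTC or TTCNNGAA, the paired units of a heat shock element, which overlap one another in CHORDC1.
HSPA1A: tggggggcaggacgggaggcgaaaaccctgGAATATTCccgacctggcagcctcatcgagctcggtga
CHORDC1: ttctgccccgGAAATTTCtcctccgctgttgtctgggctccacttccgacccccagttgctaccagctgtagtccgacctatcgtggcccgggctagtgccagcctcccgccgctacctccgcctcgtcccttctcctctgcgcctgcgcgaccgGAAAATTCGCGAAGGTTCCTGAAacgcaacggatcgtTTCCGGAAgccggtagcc
The heat shock motif was in 8 of 20 chaperone genes (40%), in 11.7% of all promoters and in 8.49% of those of tested genes. Among the 5 chaperone genes with a promoter and an unadjusted p under 0.05 it was in 3. GPX2 (chr14:64942829-64942897, minus), a glutathione peroxidase gene, carries TGACNNNGC, the core of the antioxidant response element, on its reverse strand in capitals.
GPX2: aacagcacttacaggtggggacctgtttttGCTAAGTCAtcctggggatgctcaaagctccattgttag
The antioxidant motif was in 5 of 24 NRF2 targets (20.8%), in 11% of all promoters and in 12.3% of those of tested genes. Among the 12 NRF2 targets with a promoter and an unadjusted p under 0.05 it was in 1, GPX2. A match is a description of these letters only.

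Differences from DMSO were small and broad. No gene passed an adjusted p of 0.05 with edgeR's quasi-likelihood test without a replicate block, a share called of 0%. The lowest adjusted p by that test was 0.0529, shared by MATN3, FHL2 and EGR1. At an unadjusted p under 0.05 there were 1915 genes, 15.2% of those tested: 933 higher (7.42%) and 982 lower (7.81%). Their median absolute log2 fold change was 0.32, 1468 of them lay under 0.5 and 103 lay over 1, while the 95% interval of a fold change reached a median of 0.25 to either side. Other tools called more: DESeq2 called 155 genes, limma-voom 4 (FHL2, MATN3, VCAN and CTD-2616J11.11) and edgeR on the 6 libraries alone 135. With the replicate number as a block, edgeR called 1037 genes, 549 higher and 488 lower. These held all 155 calls of DESeq2 and 134 of the 135. Same-numbered DMSO and TCEP libraries were not taken as pairs, and the absence of calls depends on that choice. DESeq2 and the fit to 6 libraries shared 50 calls, 26 higher and 24 lower, among them MATN3, FHL2, PAM, USP13, PTPRN2, LOX and ANXA2 higher and SGK1, SPP1, HSPA1A, HSPH1, GPX2, AKR1B1 and EPHX1 lower. Replicate 2 was often the most extreme library in both groups. TCEP 25 µM replicate 2 was the highest TCEP library in 72.7% of the 933 higher genes and the lowest in 73.2% of the 982 lower ones, against 35.7% and 36.6% of all genes tested. DMSO replicate 2 was the highest DMSO library in 51.7% of the higher genes and the lowest in 46.1% of the lower ones, against 38.7% and 38.2% of all genes tested. Without DMSO replicate 2, 1960 genes lay under the unadjusted threshold. The number was 1365 without DMSO replicate 1, 1619 without DMSO replicate 3, 1855 without TCEP replicate 1 and 1774 without TCEP replicate 3. Without TCEP replicate 2, 982 genes remained under the unadjusted threshold, 483 higher and 499 lower. Because no gene was called without the block, fold changes below are given as measured differences. List counts use the unadjusted threshold beside the background shares given above. List counts without a library are given where they moved by over 1.5 times, a check chosen after seeing the data. They are to be read beside the all-gene count above for the same library left out.

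The 10 higher genes that the naming rule took have varied roles, from matrix proteins to a deubiquitinase. MATN3, matrilin 3, a filament-forming matrix protein on chr2:20191872-20212455 (hg19), stood at 348, 458 and 411 CPM with DMSO and at 583, 629 and 561 CPM with TCEP. All 3 TCEP libraries lay above all 3 DMSO libraries, at a log2 fold change of 0.54 with a standard error (SE) of 0.09 and an edgeR adjusted p of 0.0529, and 68.7% of its reads were unique to it. FHL2, a LIM-domain cofactor of focal adhesions and the nucleus on chr2:105974169-106054970, stood at 49.4, 61.4 and 57.7 CPM with DMSO and at 88.1, 102 and 92.0 CPM with TCEP. Its groups did not overlap either, and its log2 fold change was 0.74 (SE 0.12, adjusted p = 0.0529 by edgeR); DESeq2 gave FHL2 an adjusted p of 1.6e-05 and MATN3 one of 2.5e-06, and gave none for EGR1 or VCAN. VCAN, the proteoglycan versican, was at 15.6, 19.2 and 16.9 CPM with DMSO and at 27.7, 30.4 and 27.4 CPM with TCEP, a log2 fold change of 0.72 with an SE of 0.13 and an edgeR adjusted p of 0.0762, with 33.6% of its reads unique. PAM, which amidates secreted peptides, stood at 97.8, 106 and 104 CPM with DMSO and at 148, 176 and 138 CPM with TCEP, also without overlap. ANGPTL2, a secreted angiopoietin-like protein, stood at 14.4 ± 1.20 CPM with DMSO and 27.9 ± 5.22 CPM with TCEP (n = 3 each), with 28.8% of its reads unique. The other genes that the naming rule took were RIN2, a RAB5 exchange factor (0.88), PTPRN2 (0.75), the deubiquitinase gene USP13 (0.52), ZNF395 (0.43) and CBX5, which encodes heterochromatin protein HP1 alpha (0.34). All of these lay without overlap at an adjusted p of 0.116, and their values in brackets are log2 fold changes.

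**Figure D1:**
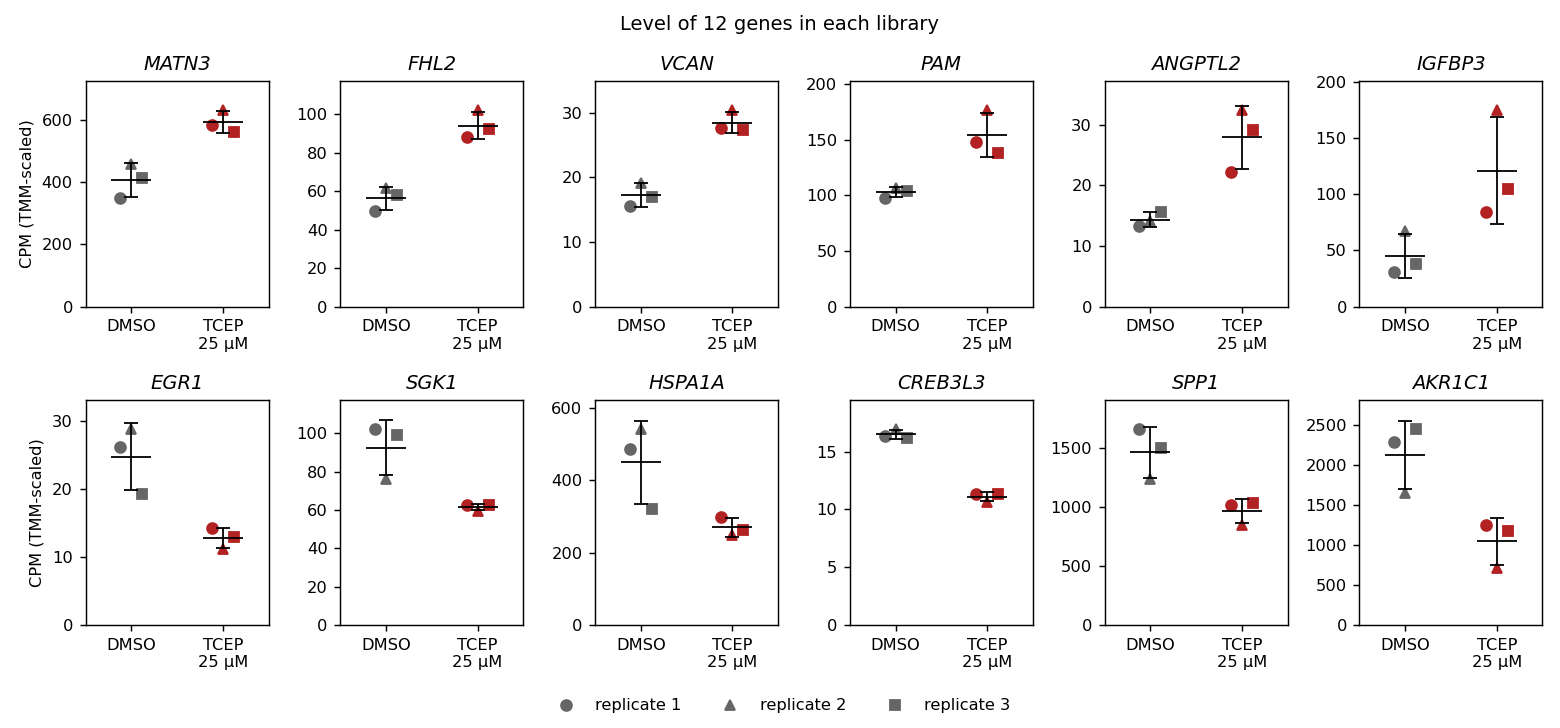
TMM-scaled CPM of 12 genes in each DMSO (grey) and TCEP 25 µM (red) library, with symbols for the replicate number and bars for the mean ± SD of 3 libraries. In all 12 panels the TCEP libraries lie on one side of the DMSO libraries, above them in the top row and below them in the bottom row. In the top row TCEP replicate 2 is the farthest from DMSO for MATN3, FHL2, VCAN, PAM and IGFBP3. The same holds in the bottom row for EGR1, SGK1, HSPA1A, CREB3L3, SPP1 and AKR1C1.

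Among the lower genes EGR1 had the smallest p. EGR1, an immediate early transcription factor, stood at 26.2, 28.8 and 19.2 CPM with DMSO and at 14.3, 11.2 and 12.9 CPM with TCEP. The groups did not overlap, and the log2 fold change was -0.92 (SE 0.15, adjusted p = 0.0529 by edgeR). SGK1, a kinase induced by serum and glucocorticoids, stood at 102, 76.0 and 99.0 CPM with DMSO and at 62.5, 59.6 and 62.6 CPM with TCEP, a log2 fold change of -0.59 (SE 0.11). HSPA1A, the inducible HSP70, was at 486, 542 and 321 CPM with DMSO and at 298, 248 and 264 CPM with TCEP, again with no overlap; only 26.9% of its reads were unique, since HSPA1B is nearly identical. CREB3L3, a liver transcription factor of fasting and lipid metabolism, stood at 16.4, 17.0 and 16.2 CPM with DMSO and 11.3, 10.7 and 11.3 CPM with TCEP. LPIN3, a phosphatidate phosphatase gene (-0.46), DENND4B (-0.35), C12orf65 (-0.85, with 66.5% unique reads) and ETNPPL, which breaks down phosphoethanolamine (-1.65), were the remaining ones of moderate level. Near the floor, GLP2R went from 3.97, 1.24 and 4.68 CPM with DMSO to 0.476, 0.112 and 0.339 CPM with TCEP, and CTD-2616J11.11 from 1.82 to 0.238 CPM with 9.46% unique reads. Both TCEP means amount to a few reads a library, so no fold is given for them.

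Among 34 tested hypoxia genes of the 35 listed, 14 were higher and 0 lower at an unadjusted p under 0.05, and 16 were higher without overlap, where 11.4% of all genes were (11.3% were lower without overlap). The median log2 fold change was 0.21 against 0.00 over all genes, and 29 of the 34 had a positive sign. Glucose entry led: SLC2A3, the transporter GLUT3, stood at 706, 865 and 703 CPM with DMSO and at 979, 1349 and 1258 CPM with TCEP. LOX, which crosslinks collagen and elastin, stood at 142, 143 and 135 CPM with DMSO and at 169, 244 and 215 CPM with TCEP, with 59.1% unique reads. For both genes every TCEP library was above every DMSO library, and replicate 2 was the highest. ERO1L, an endoplasmic reticulum oxidase, was at 313 CPM with DMSO and 476 CPM with TCEP (log2 fold change 0.60), and BNIP3, a mitophagy receptor, at 314 and 404 CPM (0.36). Others among the 14 were CA9 (0.39) and VEGFA (0.36), PPFIA4 (0.53), the oxygen sensor EGLN3 (0.46), P4HA1 (0.36), NDRG1 (0.35), PDK1 (0.27), PFKFB4 (0.21) and BNIP3L (0.19). Of 26 glycolysis and glucose transport genes, 11 were higher and 1 lower at that threshold, with a median of 0.14, among them PGK1 (0.33), GAPDH (0.32), ENO1 (0.24) and SLC2A2 (0.46), while the muscle enolase ENO3 was the lower one (-0.64). Without TCEP replicate 2 the hypoxia count was 7 higher and 0 lower, with a median of 0.15, and the glycolysis count 6 higher and 1 lower, as it also was without DMSO replicate 3.

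NRF2 targets leaned the other way. Of 33 tested of 34 listed, 16 were lower and 1 higher at an unadjusted p under 0.05, the median was -0.16, and without TCEP replicate 2 the counts were 14 lower and 1 higher. AKR1C1 had the largest difference. This aldo-keto reductase, which reduces steroids and aldehydes, stood at 2296, 1651 and 2455 CPM with DMSO and at 1253, 710 and 1178 CPM with TCEP, a log2 fold change of -1.03 with an SE of 0.31 and an edgeR adjusted p of 0.160. AKR1B10 stood at 539, 354 and 500 CPM with DMSO and at 314, 245 and 299 CPM with TCEP, and AKR1C2 differed by -0.88, AKR1B1 by -0.62 and AKR1C3 by -0.38 on the log2 scale. AKR1C1 and AKR1C2 are near-identical, and 72.3% of AKR1C1 reads and 62.0% of AKR1C2 reads were unique. GPX2 was at 367 CPM with DMSO and 199 CPM with TCEP, with 11.7% unique reads, and EPHX1, a microsomal epoxide hydrolase, differed by -0.62. NQO1, the quinone reductase often used to read this program, was at 876, 722 and 855 CPM with DMSO and at 721, 684 and 684 CPM with TCEP, a log2 fold change of -0.23. The exception was HMOX1, heme oxygenase 1, at 31.2, 34.5 and 30.03 CPM with DMSO and at 42.5, 46.5 and 39.0 CPM with TCEP, above DMSO in every library (0.42).

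**Figure D2:**
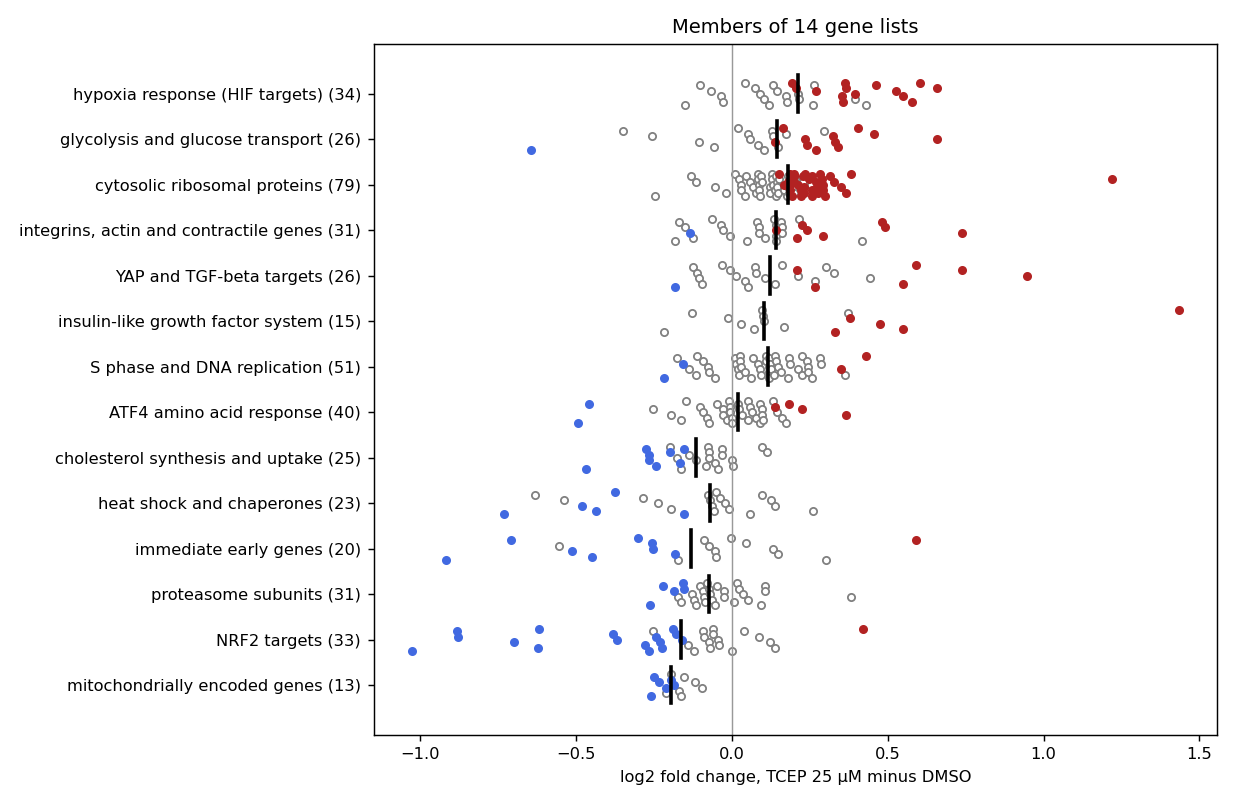
Log2 fold change (TCEP 25 µM minus DMSO, exon reads) of each tested member of 14 gene lists, with the number tested in brackets. Red and blue points have an unadjusted p under 0.05 and higher or lower levels with TCEP, open points do not, and the black bar is the list median, which runs from -0.20 for mitochondrially encoded genes to 0.21 for the hypoxia list.

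Genes of growth signalling and of the stress chaperones had more lower than higher members. Of 20 immediate early genes, 8 were lower at an unadjusted p under 0.05, EGR1, IER5 (-0.71), NR4A1 (-0.51), FOS (-0.45), FOSL1, JUND, IER3 and SRF, and 1 was higher, CYR61 (0.59), a matrix-associated growth regulator. Without TCEP replicate 2 these counts were 4 lower and 0 higher. Of 23 chaperone genes, 5 were lower and 0 higher: HSPA1A, HSPA1B (-0.44), HSPH1 (-0.48), CHORDC1 (-0.38) and STIP1 (-0.15), all without overlap, and without DMSO replicate 1 the count was 3 lower and 0 higher. HSPH1, a large HSP110 chaperone whose reads are all unique, stood at 201, 261 and 223 CPM with DMSO and at 172, 149 and 170 CPM with TCEP. Of 31 p53 targets, 5 were lower (TP53INP1, EDA2R, C12orf5, FDXR and CDKN1A) and 1 higher (BBC3). CDKN1A, the p21 cell cycle inhibitor, was at 67.1 CPM with DMSO and 59.6 CPM with TCEP. The p53 count was 2 lower and 0 higher without TCEP replicate 2.

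Matrix, adhesion and growth factor genes were mixed. Of 42 matrix genes, 11 were higher and 6 lower, with a median of 0.03 (7 higher and 2 lower without TCEP replicate 2). SPP1, the secreted phosphoprotein osteopontin, was among the lower ones at 1657, 1230 and 1498 CPM with DMSO and 1016, 842.5 and 1027 CPM with TCEP. It did not overlap between groups, with a log2 fold change of -0.60 with an SE of 0.14 and an edgeR adjusted p of 0.116. Of 31 integrin, actin and contractile genes, 8 were higher and 1 lower (TLN1), with ANXA2 (0.49), ITGA1 (0.48) and ITGB1 (0.23) among the higher; without TCEP replicate 2 the counts were 2 higher and 0 lower. Of 26 YAP and TGF-beta targets, 6 were higher and 1 lower (AMOTL2), and without that library 2 were higher and 0 lower (4 and 0 without DMSO replicate 1). In the insulin-like growth factor system 5 of 15 tested were higher and 0 lower, and 3 were higher without that library, 3 without DMSO replicate 1 and 2 without DMSO replicate 3. The 5 were IGF2, IGFBP1, IGFBP2, IGFBP3 and IGFBP4. IGFBP3, a carrier of these growth factors that also binds matrix, stood at 30.4, 66.8 and 37.6 CPM with DMSO and at 84.0, 174 and 104 CPM with TCEP, a log2 fold change of 1.44 with an SE of 0.38 and an edgeR adjusted p of 0.134. Replicate 2 was the highest library in both groups, and the lowest TCEP library lay above the highest DMSO library. IGFBP1, made by the liver in fasting, was at 1859 CPM with DMSO and 2418 CPM with TCEP (0.38), and the fetal growth factor gene IGF2 differed by 0.55.

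Ribosomal protein genes differed little at the median, and those under the unadjusted threshold lay in 1 direction. Of 79, 36 were higher and 0 lower, with a median of 0.18. A positive sign was held by 74 and a negative one by 5, and single log2 fold changes ran from -0.25 to 1.22. RPL34, with 99.1% unique reads, stood at 321, 352 and 371 CPM with DMSO and at 440, 419 and 390 CPM with TCEP (0.26). RPS3A (0.28), RPL9 (0.38) and RPL39 (0.35) had the smallest p besides it, with 10.6%, 4.78% and 4.95% unique reads, since ribosomal protein genes have many processed copies. The value of RPL9 depended on the processing, from 0.08 to 0.46 over 16 alternatives. RPS3A ran from 0.23 to 0.35 and RPL39 from 0.24 to 0.45. Without TCEP replicate 2, 13 of the 79 were higher and 0 lower, without DMSO replicate 1 21 were higher, and without TCEP replicate 1 22 were. All 13 mitochondrially encoded genes had a negative sign, with a median of -0.20, and 6 were lower at an unadjusted p under 0.05, though 2 lay without overlap, MT-CO2 and MT-CYB. MT-CO2, a cytochrome oxidase subunit, was at 8746, 9802 and 8308 CPM with DMSO and 7453, 7128 and 7844 CPM with TCEP. Of 63 nuclear genes of oxidative phosphorylation, 4 were higher (NDUFS4, NDUFB5, ATP5G2 and ATP5H) and 0 lower, with a median of 0.01. When TCEP replicate 2 was left out, 3 mitochondrially encoded genes were lower and 1 nuclear gene was higher. The mitochondrial count was 3 lower without DMSO replicate 2 and 10 lower without DMSO replicate 3, and the nuclear count 2 higher without DMSO replicate 1.

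Of 25 cholesterol genes, 8 were lower and 0 higher, with a median of -0.12 (3 lower and 0 higher without TCEP replicate 2, 4 and 0 without DMSO replicate 1). HMGCS1, which makes the precursor of mevalonate, stood at 221 CPM with DMSO and at 210 CPM with TCEP, with overlapping groups. Of 28 genes of fatty acid synthesis and storage, 7 were lower and 2 higher (AGPAT2 and PLIN5), with ACLY (-0.22), FASN (-0.30) and DGAT1 (-0.46) among the lower. That count was 2 lower and 1 higher without TCEP replicate 2, and 4 lower and 1 higher without DMSO replicate 1. CPT1A, the gatekeeper of mitochondrial fatty acid oxidation, stood at 57.1, 57.2 and 52.5 CPM with DMSO and at 68.7, 92.2 and 73.6 CPM with TCEP (0.49).

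Liver genes differed in both directions. Of 56 hepatocyte identity and secreted protein genes, 13 were higher and 5 lower, with AHSG (0.30), C5 (0.34) and APOC1 (0.32) among the higher and ALB, AFP, HP and HPX among the lower. HPX, the heme carrier hemopexin, was at 4.19 CPM with DMSO and 1.78 CPM with TCEP (-1.21). Albumin, ALB, was at 21800 CPM with DMSO and 17530 CPM with TCEP, and the fetal albumin AFP at 1880 and 1580 CPM, both with overlapping groups. Of 24 urea cycle and amino acid breakdown genes, 7 were higher and 2 lower (ETNPPL and GLS2), led by HAL, which opens histidine breakdown, at 11.4 CPM with DMSO and 23.6 CPM with TCEP (1.06). Without TCEP replicate 2 this count was 1 higher and 2 lower, without DMSO replicate 1 it was 2 and 2, and without DMSO replicate 3 4 and 1. Among 24 cytochrome P450 and nuclear receptor genes tested of 44 listed, 1 was higher (CYP2S1) and 5 lower (CYP3A7, CYP4V2, CYP2W1, NR1H4 and NR0B2). CYP1A1, the classic target of the aryl hydrocarbon receptor, was at 7.42, 4.08 and 7.81 CPM with DMSO and at 3.71, 2.59 and 4.68 CPM with TCEP, with overlap (log2 fold change -0.81, adjusted p = 0.339 by edgeR). The bile acid receptor gene NR1H4 differed by -0.45 and the fetal form CYP3A7 by -0.86, while CYP3A4, CYP2B6 and CYP7A1 did not pass the low-count filter. SLC51A, a subunit of the bile acid exporter, stood at 3.20, 4.83 and 3.46 CPM with DMSO and at 6.47, 17.0 and 7.53 CPM with TCEP, with replicate 2 the highest in both groups. UGT2B4, a glucuronosyltransferase gene, differed by -0.72. The hepatocyte list had 8 higher and 1 lower without TCEP replicate 2, and 10 higher and 1 lower without DMSO replicate 1. The cytochrome P450 list had 0 higher and 2 lower without TCEP replicate 2 or without DMSO replicate 3, and 4 higher and 6 lower without DMSO replicate 2.

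Few division genes had an unadjusted p under 0.05. Of 51 S phase genes 2 were higher (UHRF1 and CHAF1B) and 2 lower (DNMT1 and ORC6), but the list's median was 0.12, 41 had a positive sign and 10 were higher without overlap. Of 51 mitosis genes 0 were higher and 4 lower, PLK1 (-0.25), CDC20 (-0.27), KIF20A (-0.23) and BIRC5 (-0.17). The S phase count was 1 higher and 0 lower without TCEP replicate 2, and 2 higher and 0 lower without DMSO replicate 1. The mitosis count was 2 lower without DMSO replicate 1 or without TCEP replicate 3. MKI67 stood at 139 CPM with DMSO and 134 CPM with TCEP. Of 40 ATF4 targets, 4 were higher (VEGFA, CEBPG, ASNS and MTHFD2) and 2 lower (ALDH18A1 and SLC6A9), with a median of 0.02 (2 higher and 1 lower without DMSO replicate 1), and ASNS, asparagine synthetase, stood at 100 and 114 CPM with overlap.

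Intron reads, which come largely from unspliced RNA of the same libraries, were tested separately for 10256 genes. A single gene, the noncoding RP11-361L15.4, passed (0.00975% called): it rose from 35.2 ± 4.07 to 116 ± 20.6 intron CPM (n = 3 each), a log2 fold change of 1.73 with an SE of 0.27 and an edgeR adjusted p of 0.0419. It was not called under library-total scaling or when DMSO replicate 1 or any of the 3 TCEP libraries was left out. An unadjusted p under 0.05 was reached by 1028 genes (10%), 5.28% higher and 4.74% lower. Of 495 genes with an exon p under 0.01 that were tested in introns, 418 (84.4%) had the same sign there, as did 62% of all genes. Fewer, 146 of the 495, had the same sign and an unadjusted intron p under 0.05. Over the 8998 genes tested in both, exon and intron log2 fold changes had a Pearson r of 0.457. The intron values come from other reads of the same RNA, so they share its source. SLC2A3 had an intron log2 fold change of 0.90, IGFBP3 1.68, MATN3 0.43, AKR1C1 -1.18, AKR1B10 -0.83 and SPP1 -0.99, each with the sign of its exon reads. FHL2 gave 0.14 at an unadjusted p of 0.52. Over the lists, 4 of 32 hypoxia genes tested in introns were higher (SLC2A3, EGLN3 and NDRG1 among them) and 0 lower, with a median of 0.13. In the same reads 11 of 30 NRF2 targets were lower and 0 higher, with a median of -0.19. Of 61 ribosomal protein genes 1 was higher (RPS4X) and 1 lower (RPLP0), with a median of -0.03.

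The other exposures were set beside TCEP 25 µM in 3 direct comparisons. Their fold changes are between exposed groups, while the DMSO libraries take part in the shared filter, scaling and estimate of spread. Replicates with the same number deviated together among the exposed groups, so counts with the replicate number as a block are given too. The block fits held all 15 libraries, so the DMSO libraries, grouped by their numbers, also helped set the replicate effect. At the concentration that both compounds share, 25 µM, TCEP and TCIPP differed in 5 genes (0.0398% called), in 0 when these 2 groups were fitted alone, and with the block in 1100 (8.75%), of which 561 were higher with TCEP (4.46%) and 539 lower (4.29%). MATN3 stood at 583, 629 and 561 CPM with TCEP and at 380, 399 and 392 CPM with TCIPP (log2 fold change 0.60, SE 0.09, adjusted p = 0.0283 by edgeR). VCAN, at 28.5 ± 1.63 and 16.3 ± 3.02 CPM, and EDN1, the vasoconstrictor peptide endothelin 1, at 31.3 ± 2.91 and 19.5 ± 2.33 CPM, were higher with TCEP too (n = 3 each). AFF1, a transcription elongation factor, was called lower with TCEP, at 69.9 ± 2.10 CPM against 95.3 ± 8.29 CPM (n = 3 each). CYB5A, the electron carrier cytochrome b5, was called lower at 68.3 ± 1.35 CPM against 90.4 ± 6.97 CPM (n = 3 each). These calls hang on the 6 libraries used: leaving out any 1 of 5 of them gave 0 calls and leaving out TCIPP replicate 2 gave 208.

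With the block, TCEP and TCIPP at 25 µM differed in members of most of the lists above. Called higher with TCEP were 8 of 34 hypoxia genes, 8 of 26 glycolysis genes and 28 of 79 ribosomal protein genes, with 0 called lower in each. Lower with TCEP were 15 of 33 NRF2 targets (1 higher, HMOX1), 18 of 40 ATF4 targets, 7 of 25 cholesterol genes and 6 of 13 mitochondrially encoded genes. These lists share members: SLC2A3 and PDK1 count for both hypoxia and glycolysis, and SLC7A11 for both NRF2 and ATF4. IGFBP3 differed by 1.21 on the log2 scale (adjusted p = 1.23e-06 by edgeR with the block) and NR1H4 by -0.68 (adjusted p = 0.000114). The ATF4 targets had a median against DMSO of 0.02 with TCEP 25 µM, 0.27 with TCIPP 25 µM and 0.23 with TCEP 250 µM. Several genes gave no call in the difference: SGK1 differed by -0.08 (SE 0.11) and SPP1 by 0.01 (SE 0.14) between TCEP and TCIPP at 25 µM, and IGFBP1 by -0.02 (SE 0.11). These were tested without the block, and a missing call does not show equal levels.

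The same compound was also given at 250 µM. Between TCEP 25 and 250 µM, 0 genes were called without the block (900 at an unadjusted p under 0.05, 7.16%; DESeq2 called 14 and limma-voom 0), and 185 with it (1.47%), 118 higher at 25 µM (0.939%) and 67 lower (0.533%). Called higher at 25 µM with the block were 11 of 34 hypoxia genes, SLC2A3 (0.46), CA9 (0.51), EGLN3 (0.54), ERO1L (0.46), NDRG1 (0.43), LOX (0.35), BNIP3 (0.29), PFKFB4, P4HA1, PDK1 and PPFIA4 (1.04), and 0 were lower. Called lower at 25 µM were 13 of 40 ATF4 targets, with the glycine transporter SLC6A9 (-0.75), the cystine transporter SLC7A11 (-0.51) and ASNS (-0.32) among them. NRF2 targets gave 5 lower, AKR1C1 (-0.60), AKR1C2, AKR1B10, GPX2 and SLC7A11, and 1 higher, HMOX1 (0.37). IGFBP3 stood at 84.0, 174 and 104 CPM at 25 µM and at 36.6, 81.5 and 53.02 CPM at 250 µM, higher at 25 µM in every replicate (1.07, adjusted p = 4.29e-06 by edgeR with the block). Of the 5 genes with the smallest p without the block, VCAN and MATN3 are described above and PPFIA4, FMO5 (0.33) and GTF2H2 (-0.52, with 14.8% unique reads) had an adjusted p of 0.459.

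TCIPP at 2.5 µM, a different compound at another concentration, gave the fewest differences from TCEP 25 µM of the 3 comparisons: 0 genes called with and without the block, 0 with DESeq2, and 718 at an unadjusted p under 0.05 (5.71%). FHL2 stood at 94.0 ± 7.10 CPM with TCEP 25 µM and 93.0 ± 9.92 CPM with TCIPP 2.5 µM (n = 3 each), with a log2 difference of 0.02 (SE 0.12). MATN3 differed by 0.04 (SE 0.08), IGFBP3 by -0.01 (SE 0.36) and AKR1C1 by -0.06 (SE 0.30). With the replicate block the differences were 0.02 for FHL2 (SE 0.06), 0.04 for MATN3 (SE 0.06), -0.01 for IGFBP3 (SE 0.08) and -0.04 for AKR1C1 (SE 0.11). The 5 genes with the smallest p were UBE2Q2P2 (2.00, with 0.935% unique reads), KMT2B_1, AMOTL2, DXO and MED16, at an adjusted p of 0.824.

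**Figure D3:**
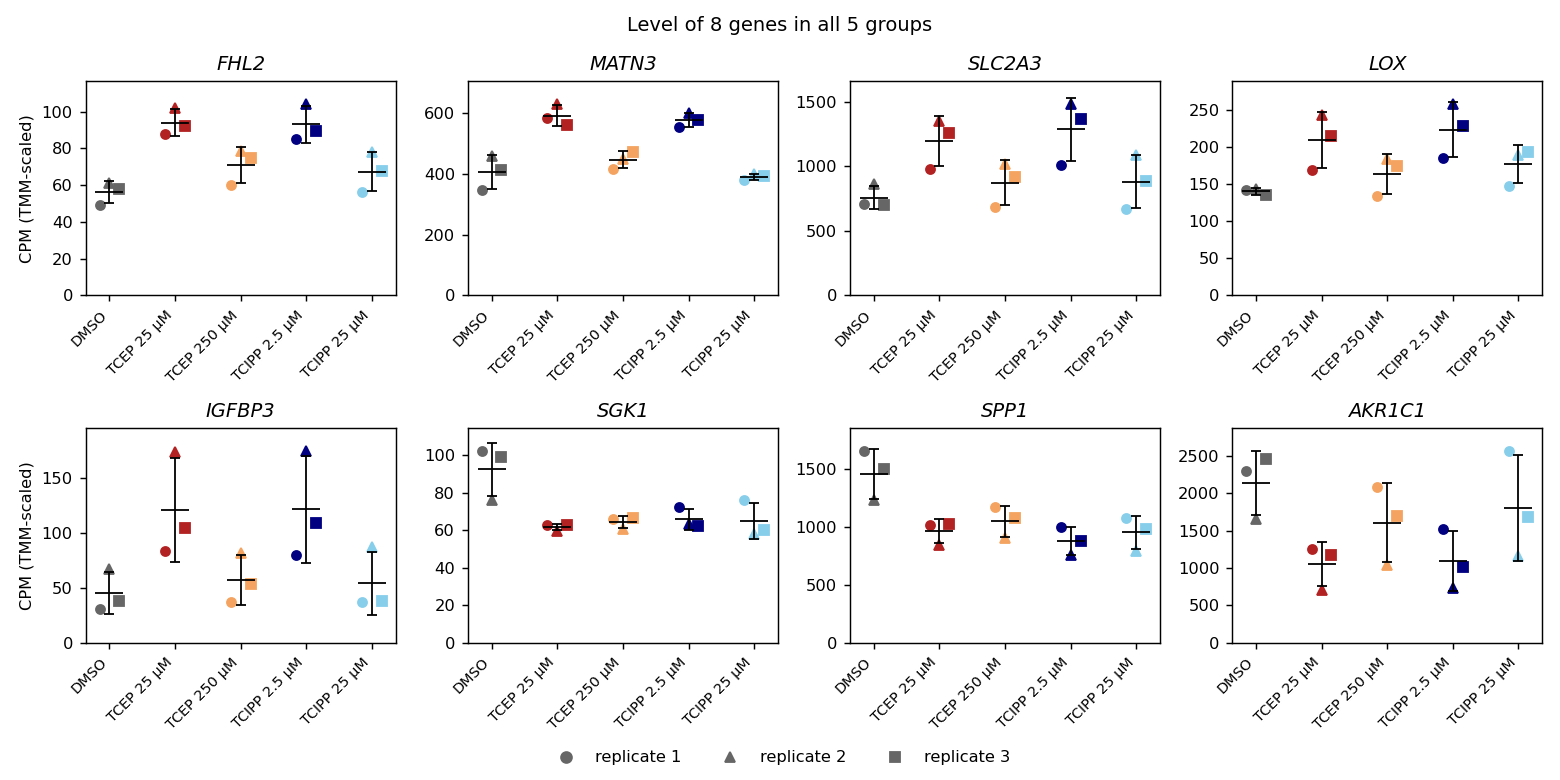
TMM-scaled CPM of 8 genes in all 15 libraries, with symbols for the replicate number and bars for the mean ± SD of 3 libraries. FHL2, MATN3 and IGFBP3 stand higher on average with TCEP 25 µM and TCIPP 2.5 µM than in the other 3 groups, while SGK1 lies between 61.6 and 65.8 CPM on average in all 4 exposed groups and at 92.4 CPM with DMSO.

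Against the shared DMSO libraries, which tie all 4 sets of fold changes together, the list medians can be read side by side. The hypoxia median was 0.21 with TCEP 25 µM, 0.03 with TCEP 250 µM, 0.31 with TCIPP 2.5 µM and 0.06 with TCIPP 25 µM. The NRF2 median was -0.16, -0.05, -0.16 and -0.02 in that order, and the median of the mitochondrially encoded genes -0.20, -0.10, -0.20 and 0.04. The ribosomal protein median was 0.18, 0.07, 0.12 and -0.02. In these 4 lists TCEP 25 µM and TCIPP 2.5 µM, the lower concentration of each compound, lay farther from 0 than the higher concentration of the same compound. Other lists did not all share this order. The ATF4 median was 0.02, 0.23, 0.04 and 0.27 in the order above. For genes of the unfolded protein response and endoplasmic reticulum folding the median was 0.05, 0.10, 0.03 and 0.11.

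**Figure D4:**
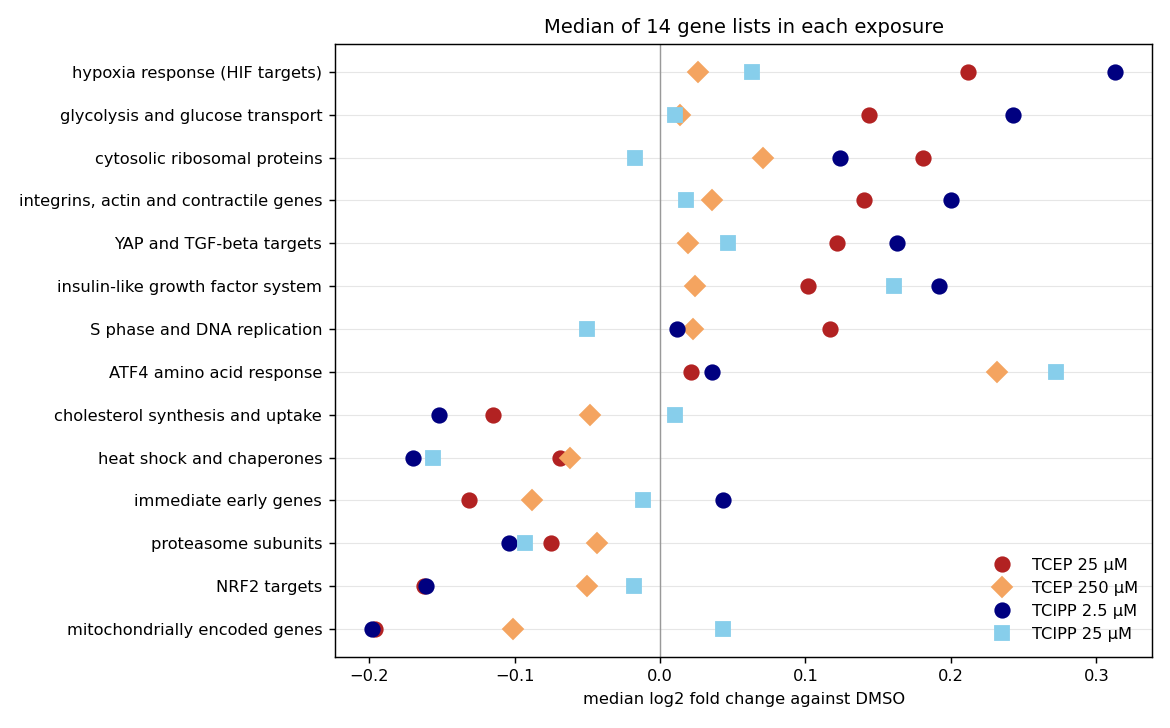
Median log2 fold change against DMSO of 14 gene lists in each of the 4 exposures, all measured against the same 3 DMSO libraries. For the hypoxia list TCEP 25 µM (0.21) and TCIPP 2.5 µM (0.31) lie to the right of TCEP 250 µM (0.03) and TCIPP 25 µM (0.06), and for the ATF4 list the order is the other way round.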

How the data were processed

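The members and gene lists were chosen with earlier results of these data known. Per the series' design text, the authors used CLC Genomics Workbench for alignment, mapping and annotation, and the submitters' processing notes name hg 19 (GRCh 37). Mapper settings, annotation release and strand use are not given in the sources used here. Reads of antisense partners therefore cannot be separated. The deposited counts, per the file headers, are whole reads for each gene in its exons, its introns and in all, with unique reads apart. The files also carry RPKM values from the authors, which were not tested and are not printed, and a quantile-normalized signal that the authors deposited and that was not used. That text places quantile normalization ahead of mapping, while the exon columns hold whole numbers whose totals differ between libraries, and they were taken as raw.

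Total exon reads of all 15 libraries were fitted together with edgeR 4.0.16 (R 4.3.3): TMM scaling, the default low-count filter, quasi-likelihood tests, Benjamini-Hochberg adjustment over the 12567 genes tested, calls at an adjusted p under 0.05. CPM are TMM-scaled, the standard error is the fold change over the root of F, and library totals are those of the exon reads. Of 57773 listed genes, 20986 had an exon length of 0 and no exon reads; 27 date-like names were restored from identifiers, and 55538 identifiers matched the name table. Gene coordinates are hg19, with starts moved by 1 base. In all, 39 lists hold 1147 genes, of which 1145 were matched and 986 tested. Of the tested genes 47 are in more than 1 list, so the list counts share members. Described beside the main result were the genes named by rule: the 10 with the smallest p per direction without overlap and at least 1 CPM, up to 4 members per list and a fixed set always looked up. Not every gene the rule took is named, and some items are not reported here.

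Replicates share a number across groups. Deviations from group means correlated by 0.0292 to 0.0893 between same-numbered DMSO and TCEP 25 µM libraries and by 0.177 to 0.286 between TCEP 25 µM and each other exposure. Under a chosen limit that lay between these ranges, only the latter were taken as pairs. The DMSO correlations were positive too, and the absence of calls against DMSO depends on this choice. With the block 1037 genes were called for TCEP 25 µM against DMSO. Libraries of a replicate were separate cultures, per the series' design text. DESeq2 1.42.0 and limma 3.58.1 gave alternatives.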

Additional observations from a re-analysis of the deposited data

Results flagged for a closer look

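The direct comparison of TCEP with TCIPP at 25 µM singled out 5 genes whose level differed between the compounds at an adjusted p under 0.05 by edgeR. MATN3 (0.6), VCAN (0.82) and EDN1 (0.69) were higher with TCEP on the log2 scale, and AFF1 (-0.45) and CYB5A (-0.41) lower. MATN3, VCAN and EDN1 also had higher means with TCEP than with DMSO, a comparison that uses the same 3 TCEP libraries. AFF1 stood at 87.1 ± 4.26 CPM with DMSO and 69.9 ± 2.1 CPM with TCEP (n = 3 each), without overlap. CYB5A stood at 72.9 ± 3.13 CPM with DMSO and 68.3 ± 1.35 CPM with TCEP (n = 3 each), and at 90.4 ± 6.97 CPM with TCIPP (n = 3).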

How the results depend on the processing

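For TCEP 25 µM against DMSO, 0 genes were called by edgeR, and 618 without the low-count filter, 155 by DESeq2, 4 by limma-voom, 135 with the 6 libraries alone, 2 (FHL2 and EGR1) on unique exon reads and 0 to 29 with 1 library left out, where 29 came without DMSO replicate 2 and 2 without DMSO replicate 3. The count at an unadjusted p under 0.05 ran from 982 (without TCEP replicate 2) to 1960 over the libraries left out. With the replicate number as a block 1037 genes were called, but same-numbered DMSO and TCEP libraries are not taken as pairs, and not every library correlated best with its own number. Against TCEP 250 µM, no filter gave 161, DESeq2 14 and the replicate block 185. Against TCIPP 25 µM (5 called), the counts were 2 with library totals, 756 without a filter, 8 with a minimum of 1 CPM, 334 by DESeq2, 1100 with the replicate block, 13 on total gene reads, 0 with 2 groups alone and 0 to 208 with 1 library left out, 208 without TCIPP replicate 2. Against TCIPP 2.5 µM, no filter gave 12. In intron reads (1 called), library totals gave 0, no filter 169, DESeq2 28, the groups alone 34, the replicate block 147 and left-out libraries 0 to 9. The cause of these shifts was not tested.

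Over 16 alternatives the list medians kept their sign for the hypoxia (0.15 to 0.30), glycolysis (0.12 to 0.19), NRF2 (-0.18 to -0.15), ribosomal protein (0.14 to 0.22) and mitochondrially encoded genes (-0.27 to -0.12). The difference in the mitochondrial share, -0.844 percentage points, was -0.501 without DMSO replicate 2 and -1.21 without DMSO replicate 3, and that in the intron share, -0.747, ran from -0.867 to -0.594. The share under the unadjusted threshold differed with level. Of the 3142 genes with the lowest mean level 9.61% had an unadjusted p under 0.05, and of the 3142 with the highest 20.7%. The cause of this difference was not tested.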

Other observations

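Chromosomes differed in the share of genes that were lower with TCEP 25 µM at an unadjusted p under 0.05. It was 12.7% on chromosome 16, 10.9% on chromosome 22 and 10.3% on chromosome 19, against 7.81% of all genes tested, and the share of higher genes was 14.3% on chromosome 21, against 7.42%. These shares were not tested.

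Smaller lists held some of the lower genes. Of 12 antigen presentation genes 3 were lower and 0 higher, the transactivator NLRC5 (-0.64), the peptide transporter TAP1 (-0.41) and CD74 (-0.27), all without overlap and in the same number without TCEP replicate 2. Of 31 proteasome subunits 5 were lower and 0 higher, with PSMD11 at 113 CPM with DMSO and 94.0 CPM with TCEP (-0.26). The others were PSMC4 (-0.22), PSMB3 (-0.19), PSMB2 (-0.16) and PSMD6 (-0.15), and without TCEP replicate 2 the count was 2 lower and 0 higher. It was the same without DMSO replicate 3, 2 lower and 1 higher without DMSO replicate 1, and 1 of each without TCEP replicate 3. Of 11 metallothionein and zinc genes 4 were lower and 2 higher: MT1F (-0.91, with overlap), MT1G (-0.91), the zinc importer SLC39A14 (-0.59) and the exporter SLC30A1 (-0.26) were the lower ones, and the transporters SLC39A10 (0.34) and SLC30A10 (0.27) the higher ones. Without TCEP replicate 2 that count was 2 lower and 1 higher, and without DMSO replicate 3 1 lower and 1 higher. TP53INP1, a stress and autophagy gene, stood at 14.1, 7.80 and 15.6 CPM with DMSO and at 7.33, 4.16 and 5.63 CPM with TCEP, without overlap and with 36.4% unique reads.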
